A study of Mus musculus with 6 samples.

Results

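Voltage-gated potassium channels (Kv channels) were examined through the genes that encode their pore-forming subunits, which carry the symbols Kcna, Kcnb, Kcnc, Kcnd, Kcnf, Kcng, Kcnh, Kcnq, Kcns and Kcnv followed by a number. A gene was a member when the array's platform annotation gave such a symbol alone for a probe set, and the brightest probe set was used where a gene had several. This gave 35 members among 19938 genes. RNA came from whole hippocampus of male C57Bl/6J mice at 70 days of age, after 2 subcutaneous injections on postnatal day 4 and 2 more on day 7. Pups of a litter were divided between saline controls and mice given ethanol at 2.5 g/kg per injection, a binge model of exposure during synaptogenesis. Each of the 3 saline and 3 ethanol arrays held RNA pooled from 3 non-littermate mice, so that the 6 arrays stand for 18 mice and the spread between arrays is that between pools. Values are log2 expression from Affymetrix Mouse Gene 1.0 ST arrays, and the number of arrays limits their precision.

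Kv channels open when the membrane depolarizes and let potassium leave the cell, which repolarizes the neuron after an action potential and sets how often it fires. A channel is a tetramer, in which each subunit brings a voltage sensor and a share of the pore. In hippocampal neurons Kv1 channels (Kcna) lie mainly along axons, Kv2 channels (Kcnb) on the cell body and Kv4 channels (Kcnd) in dendrites, where they carry a rapidly inactivating current. Kv3 channels (Kcnc) serve fast-spiking interneurons, and Kv7 channels (Kcnq) carry the M current, which acetylcholine suppresses. Kcnf, Kcng, Kcns and Kcnv encode silent subunits that form no channel on their own and change the properties of Kv2 channels.

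Ethanol and saline pools differed little in these genes. No member passed after Benjamini-Hochberg adjustment over the 23410 probe sets tested in limma (lowest adjusted p = 0.931), and this was true of all genes, of which 0% passed. At an unadjusted p under 0.05, 2 of the 35 members were lower after ethanol, Kcnv1 and Kcnh8, and 0 were higher. Of all genes 5.22% passed this threshold, 2.8% as higher and 2.41% as lower, so that the members' share of 5.71% was near the background. The methods' ANOVA, run gene by gene without limma's shared variance, placed 0 members under 0.05 (lowest unadjusted p = 0.0604). The median log2 change over the members was -0.024, beside 0 over all genes, and the mean after ethanol lay above that of saline in 15 of 35 members (42.9%), beside 50.1% of all genes. Single changes ran from 0.901 to 1.08 times the saline level. In either direction 0 members reached 1.2-fold, beside only 109 of all 19938 genes. In 29 of 35 members the whole 95% confidence interval lay within 1.2-fold of the saline level in either direction. The share over all genes was not computed. The other 6 members were Kcnc2, Kcng3, Kcng4, Kcns3, Kcnv1 and Kcnv2. Over all members the intervals reached from 0.805 to 1.22 times the saline level.

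**Figure D1:**
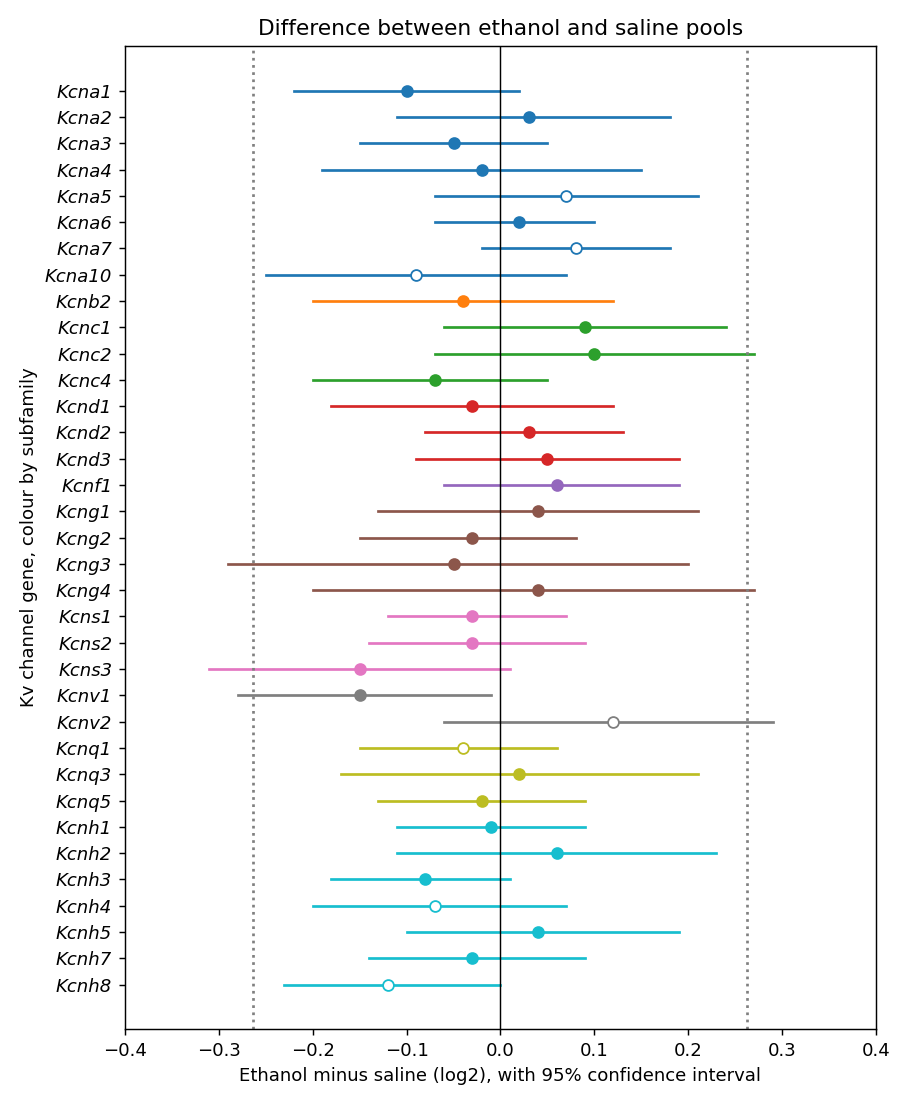
Log2 difference between the means of 3 ethanol and 3 saline pools for each of the 35 Kv channel genes, with the 95% confidence interval from limma, coloured by subfamily. Open circles are genes at the level of receptor genes, dotted lines mark 1.2-fold, and the points lie between -0.15 and 0.12.

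The array detected most of the family. Of the 35 members, 28 had a mean above 5.37 on the log2 scale, the level that 95% of the genes for olfactory and vomeronasal receptors lie below. Those genes serve here as a mark of background because they belong to the nose. The 7 at or below this mark were Kcna5, Kcna7, Kcna10, Kcnh4, Kcnh8, Kcnq1 and Kcnv2, and their differences are differences in a signal no brighter than background. The lowest level above the mark was 6.24 (Kcng4), so that no member lay close above it. Probe sets differ in how well their probes bind, and levels are therefore given per gene and not ranked between genes. All 12 measured markers of excitatory hippocampal neurons lay above the mark.

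**Figure D2:**
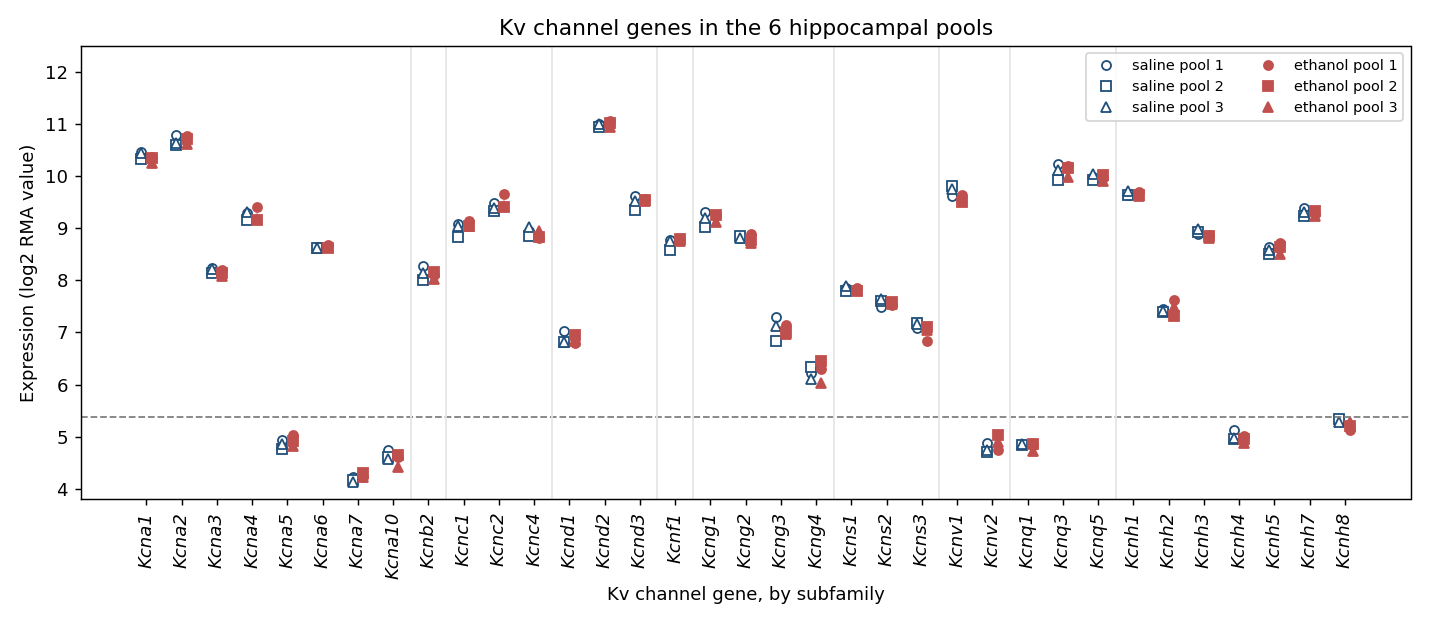
Log2 expression of each Kv channel gene in the 3 saline pools (open blue symbols) and the 3 ethanol pools (filled red symbols), grouped by subfamily. The dashed line at 5.37 marks the level of receptor genes, below which 7 of the 35 genes lie, and for most genes the symbols of both groups overlap.

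Kcna genes encode the Kv1 subunits of the Shaker type. Kcna1, which keeps axons from firing repetitively and whose mutations cause episodic ataxia, was at 10.46, 10.33 and 10.45 in saline pools 1, 2 and 3 and at 10.36, 10.35 and 10.25 in ethanol pools 1, 2 and 3. All ethanol values lay below saline pools 1 and 3, but ethanol pools 1 and 2 lay above saline pool 2, and the log2 difference was -0.10 ± 0.05 (SE, limma, unadjusted p = 0.0927). Kcna2, its usual partner in axons, was at 10.79, 10.59 and 10.64 after saline and at 10.78, 10.72 and 10.62 after ethanol. The groups overlapped throughout, with a difference of 0.03 ± 0.06. A second, dimmer probe set of Kcna2 had a difference of -0.01 ± 0.09. Kcna4, which gives an inactivating current in axons and terminals, was at 9.29, 9.16 and 9.32 after saline and at 9.40, 9.15 and 9.17 after ethanol. Ethanol pool 1 was the highest of the 6 and ethanol pool 2 the lowest, and the difference was -0.02 ± 0.07. Of the other Kcna genes, Kcna3 and Kcna6 were well above the level of receptor genes, and Kcna5, Kcna7 and Kcna10 were not. Over all 8 Kcna genes the log2 differences ran from -0.10 to 0.08, with a median of -0.001, and 0 passed the unadjusted threshold.

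Kcna10, Kcna2 and Kcna3 are neighbours on mouse chromosome 3, and they differed in whether they were detected, Kcna2 and Kcna3 lying above the level of receptor genes (means of 10.69 and 8.17) and Kcna10 below it (mean of 4.6). The sequences around their start sites, 250 bases before to 50 after, were taken from RefSeq (build GRCm38.p6) and are shown because they differ in CpG dinucleotides, the sites of DNA methylation and the hallmark of CpG islands, which are given in capitals. The windows lie within 147 kb of each other, and each is written 5′ to 3′ on the plus strand. The first covers chr3:107182893-107183192 and holds 0 CpG, the second chr3:107101317-107101616 with 31 CpG, and the third chr3:107035912-107036211 with 37 CpG. The last window is that of Kcnh8 at chr17:52602459-52602758, also on the plus strand, the dim member that passed the unadjusted threshold, with 21 CpG.
Kcna10: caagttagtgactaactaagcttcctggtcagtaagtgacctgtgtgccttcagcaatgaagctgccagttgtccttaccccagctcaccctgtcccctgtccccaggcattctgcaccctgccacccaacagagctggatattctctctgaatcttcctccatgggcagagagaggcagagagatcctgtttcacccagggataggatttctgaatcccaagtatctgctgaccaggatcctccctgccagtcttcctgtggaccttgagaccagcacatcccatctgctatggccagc
Kcna2: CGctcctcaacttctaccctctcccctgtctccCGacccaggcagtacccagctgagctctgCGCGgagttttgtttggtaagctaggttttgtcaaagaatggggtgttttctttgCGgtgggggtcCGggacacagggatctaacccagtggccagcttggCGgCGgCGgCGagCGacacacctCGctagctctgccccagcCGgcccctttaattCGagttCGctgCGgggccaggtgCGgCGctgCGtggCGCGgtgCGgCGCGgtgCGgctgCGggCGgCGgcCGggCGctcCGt
Kcna3: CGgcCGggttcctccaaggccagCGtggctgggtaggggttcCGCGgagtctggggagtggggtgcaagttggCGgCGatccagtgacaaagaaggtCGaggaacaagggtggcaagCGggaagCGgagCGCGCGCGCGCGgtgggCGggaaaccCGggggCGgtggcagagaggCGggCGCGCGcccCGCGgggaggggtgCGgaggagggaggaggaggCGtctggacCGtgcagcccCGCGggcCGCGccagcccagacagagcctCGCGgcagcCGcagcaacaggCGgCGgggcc
Kcnh8: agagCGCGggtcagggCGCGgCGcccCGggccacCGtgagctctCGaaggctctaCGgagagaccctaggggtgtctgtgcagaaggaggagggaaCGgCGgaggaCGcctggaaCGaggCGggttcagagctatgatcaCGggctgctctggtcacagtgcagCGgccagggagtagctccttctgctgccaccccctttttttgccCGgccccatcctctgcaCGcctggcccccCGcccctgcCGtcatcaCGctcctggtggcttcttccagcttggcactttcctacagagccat

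Such windows were at hand for 24 of the 35 members, 29 windows in all because some genes have several start sites. Their median was 19 CpG, beside 7 over 32851 windows of all genes. At least 10 CpG were found in 17 of the 29 windows (58.6%), beside 43.5% of all windows. Of the 7 members at or below the level of receptor genes 5 had a window, and among them Kcna10, Kcna5 and Kcna7 had 0, 4 and 4 CpG, while Kcnh4 and Kcnh8 had 23 and 21. A dim probe set thus did not go with few CpG in every case. Kcnf1, with 3 CpG and a mean of 8.74, shows the reverse, as do the 4 windows of Kcnc2, which hold 3 to 6 CpG. The motif GGGCGG on either strand, which contains a CpG and is the core of sites for the factor SP1, was found in 58.6% of the members' windows and 35.7% of all windows. TATAAA on either strand, the core of the TATA box, was found in 0 of the 29 windows and in 13.6% of all windows. These are matches of letters, and neither methylation nor binding was measured in these files.

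Kcnc genes encode Kv3 subunits, which deactivate fast and let neurons fire at high rates. Kcnc1 was at 9.08, 8.83 and 9.04 after saline and at 9.13, 9.05 and 9.04 after ethanol. Saline pool 2 was the low one and the other 5 pools lay close together, so that the difference was 0.09 ± 0.07 (SE). Kcnc2 was at 9.49, 9.33 and 9.38 after saline and at 9.66, 9.40 and 9.43 after ethanol, a difference of 0.10 ± 0.07 (95% interval of the fold, 0.952 to 1.21). Ethanol pool 1 alone lay above all saline pools in Kcnc2, and without it the difference was 0.02. This was not particular to Kcnc2, since ethanol pool 1 was the highest ethanol pool in 21 of 35 members (60.0%), beside 32.6% of all genes. Markers of the thalamus, which adjoins the hippocampus, were also highest in ethanol pool 1, with 15 of 16 markers measured. Relative to saline, their mean log2 level was higher by 0.792 in ethanol pool 1, by 0.299 in pool 2 and by 0.145 in pool 3. The linear levels of the thalamus markers were also summed in each pool, a sum in which bright probe sets weigh most. The log2 of this sum ran from 11.88 to 11.90 in saline pools and from 12.03 to 12.6 in ethanol pools. At the unadjusted threshold 12 of the 15 thalamus markers (80%) were higher, beside 2.8% of all genes. Without overlap 10 were higher, beside 5.35%. The thalamus list names Tcf7l2, Synpo2 and Vipr2, which the authors reported as higher after ethanol in these arrays. The counts of thalamus markers are therefore not independent of the data. Of the 12 interneuron markers 0 passed the unadjusted threshold. The part of these cells in the value of Kcnc2 was not tested. In pooled bulk tissue, more cells of a type and more RNA per cell cannot be told apart. Kcnc4, an inactivating Kv3 subunit, had a log2 difference of -0.07 ± 0.06.

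Kcnd genes encode the Kv4 subunits of the somatodendritic A-type current, and Kcnd2 provides most of it in pyramidal neurons. Kcnd2 was at 11.00, 10.94 and 11.00 after saline and at 11.05, 11.03 and 10.94 after ethanol. All 6 values lay within a narrow band, the difference was 0.03 ± 0.05 (SE), and the 95% interval of the fold was 0.948 to 1.09. Kcnd3, found more in interneurons, was at 9.61, 9.36 and 9.52 after saline and at 9.57, 9.55 and 9.52 after ethanol. The ethanol pools of Kcnd3 lay inside the range of the saline pools, with a difference of 0.05 ± 0.06. Kcnd1 differed by -0.03 ± 0.07, and Kcnb2, a Kv2 subunit, by -0.04 ± 0.07.

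Kcnq genes encode the Kv7 subunits. Kcnq3, a subunit of the neuronal M channel whose mutations cause neonatal epilepsy, was at 10.24, 9.93 and 10.11 after saline and at 10.19, 10.15 and 9.99 after ethanol. Its spread between saline pools (SD 0.154) was larger than the difference between groups, which was 0.02 ± 0.08 (SE). Kcnq5, another M-channel subunit, was at 9.99, 9.93 and 10.05 after saline and at 9.96, 10.03 and 9.91 after ethanol, a difference of -0.02 ± 0.05. The groups overlapped in both genes. Kcnq1, best known as a cardiac and epithelial channel, lay at the level of receptor genes.

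Kcnh genes encode the ether-à-go-go family, with the EAG, ERG and ELK branches. Kcnh3, an ELK channel of forebrain neurons, was at 8.89, 8.93 and 8.98 after saline and at 8.88, 8.85 and 8.82 after ethanol. It was the only member whose groups did not overlap, with a log2 difference of -0.08 ± 0.04 (SE, limma, unadjusted p = 0.0803), and the highest ethanol pool lay just below the lowest saline pool. Groups did not overlap in 10.4% of all genes, with 5.35% higher and 5.09% lower, so that 1 of 35 members was below this background. Kcnh8, also of the ELK branch, was at 5.34, 5.34 and 5.29 after saline and at 5.12, 5.20 and 5.29 after ethanol. Ethanol pool 3 was at the value of saline pool 3, and the difference of -0.12 ± 0.05 (unadjusted p = 0.0471, adjusted p = 0.931) was found at the level of receptor genes. A second probe set of Kcnh8 had a difference of -0.07 ± 0.09. Kcnh1, an EAG channel of presynaptic terminals, was at 9.64, 9.64 and 9.71 after saline and at 9.70, 9.63 and 9.62 after ethanol, a difference of -0.01 ± 0.04. Kcnh2, the ERG channel of the heart's repolarization, which neurons also express, differed by 0.06 ± 0.07, Kcnh5 by 0.04 ± 0.06 and Kcnh7 by -0.03 ± 0.05.

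Among the 10 silent subunits, 9 were above the level of receptor genes. Kcnv1 was at 9.62, 9.81 and 9.75 after saline and at 9.63, 9.51 and 9.59 after ethanol. The ethanol pools lay below saline pools 2 and 3, and ethanol pool 1 lay just above saline pool 1. The log2 difference was -0.15 ± 0.06 (SE), or 0.904-fold, with the lowest unadjusted p of the family in limma (unadjusted p = 0.0367, adjusted p = 0.931). Kcns3 was at 7.09, 7.19 and 7.17 after saline and at 6.84, 7.11 and 7.05 after ethanol. Its ethanol pool 1 was the lowest value, its ethanol pool 2 lay above saline pool 1, and the difference was -0.15 ± 0.07 (unadjusted p = 0.063). Without ethanol pool 1 the difference of Kcns3 was -0.07. Kcnv2, a subunit of photoreceptors at the level of receptor genes here, was at 4.87, 4.71 and 4.74 after saline and at 4.74, 5.03 and 4.89 after ethanol. The groups overlapped in Kcnv2 as well, and its difference was 0.12 ± 0.08. Kcnf1, Kcng1, Kcng2, Kcng3, Kcng4, Kcns1 and Kcns2 had differences from -0.05 to 0.06, and 0 of them passed the unadjusted threshold.

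In the members, as over all genes, the median SD between pools was larger than the median size of the difference between groups. Such an order tells little, since a mean of 3 pools varies less than a single pool. The median size of the log2 difference between groups was 0.047 over the members and 0.037 over all genes. The median SD between saline pools was 0.0831 over the members and 0.0541 over all genes, and between ethanol pools it was 0.0710 and 0.0551. In 22 of 35 members the difference between group means was within the SD of the saline pools, and the share over all genes was not computed. The spread between pools was shared across the family. Saline pool 1 lay above saline pool 2 in 29 of 35 members (82.9%), beside 50.6% of all genes and 41.3% of genes above the level of receptor genes. Saline pool 2 was the lowest saline pool in 26 members (74.3%), beside 35.8% of all genes. Ethanol pool 3 was the lowest ethanol pool in 23 (65.7%), beside 33.0%. Of the 6 pools, saline pool 1 held the highest value in 13 of 35 members, beside 18.2% of all genes, and ethanol pool 3 in 0, beside 19.9%. The mean of the members lay at 0.049, -0.057 and 0.008 from the saline mean in saline pools 1, 2 and 3, and at 0.022, 0.005 and -0.057 in ethanol pools 1, 2 and 3. The median gap between saline pools 1 and 2 was 0.129 in the members. The 6 exceptions, in which saline pool 1 was below saline pool 2, were Kcng2, Kcng4, Kcnh3, Kcns2, Kcns3 and Kcnv1. They include Kcnv1, Kcns3 and Kcnh3, the 3 members above the level of receptor genes with the lowest unadjusted p. Kcnh8, at the level of receptor genes, was not an exception, though its p (limma, unadjusted p = 0.0471) was below those of Kcns3 and Kcnh3. This order of the pools was noticed in the values and is a description, with no test.

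**Figure D3:**
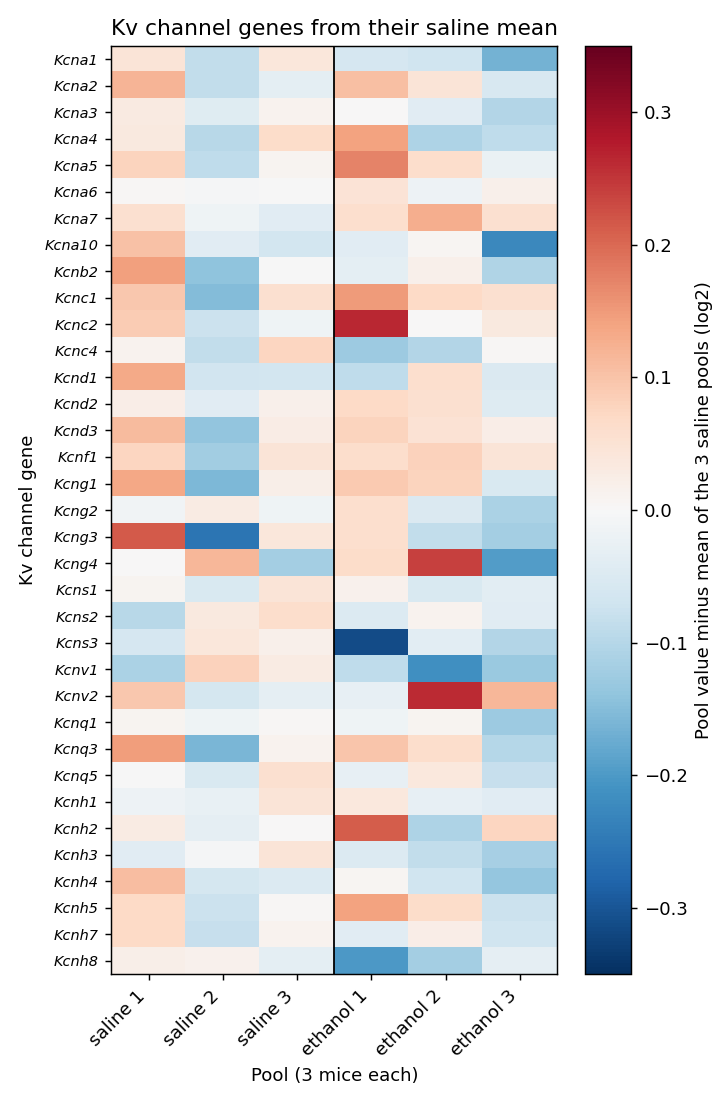
Value of each Kv channel gene in each pool, in log2 units relative to that gene's saline mean, with red above and blue below it. Saline pool 1 is above saline pool 2 in 29 of the 35 genes, and Kcnv1 and Kcns3 are among the exceptions.

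Other lists were set beside this order. The pore genes of sodium and calcium channels, 18 in number, had list means of 0.036, -0.042 and 0.006 in the saline pools. In the ethanol pools their means were 0.059, -0.021 and -0.089. Saline pool 1 was above saline pool 2 in 12 of them. Ethanol pool 3 was the lowest ethanol pool in 12 (66.7%), beside 65.7% of the members. The 37 pore genes of other potassium channels (inward rectifier, leak and calcium-activated or sodium-activated types) had means from -0.027 to 0.018 over the 6 pools, and 21 of them had saline pool 1 above saline pool 2. Markers of glia ran the other way between these saline pools, and so did those of the choroid plexus and the habenula. Saline pool 1 was above saline pool 2 in 1 of 14 choroid plexus, 2 of 8 habenula and 3 of 8 endothelial and mural markers. The same order held in 10 of 15 thalamus, 7 of 12 interneuron and 6 of 12 excitatory neuron markers. Saline pool 1 was above saline pool 2 in 1 of 11 oligodendrocyte markers, in 0 of 8 astrocyte markers and in 0 of 7 microglia markers. At the unadjusted threshold 4 of the 11 oligodendrocyte markers (36.4%) were lower after ethanol, beside 2.41% of all genes. The list means were -0.065 and 0.060 in saline pools 1 and 2 for oligodendrocytes, -0.054 and 0.033 for astrocytes and -0.081 and 0.063 for microglia. In ethanol pools 1, 2 and 3 the list means were -0.072, -0.196 and -0.042 for oligodendrocytes, -0.027, -0.078 and -0.023 for astrocytes and -0.084, -0.049 and -0.037 for microglia. All 3 glial list means were thus highest in ethanol pool 3, where that of the members was lowest. For astrocytes this rests on -0.023 against -0.027, and ethanol pool 1 was the highest ethanol pool in 4 of 8 astrocyte markers. The microglia list ran in the reverse order of the members over the ethanol pools. The oligodendrocyte and astrocyte lists did not, being lowest in ethanol pool 2. Markers of excitatory neurons had means of -0.006, 0 and 0.006 in the saline pools. In ethanol pools 1, 2 and 3 their means were 0.007, 0.046 and -0.052, so that the list mean, like that of the members, was lowest in pool 3. Marker by marker, pool 3 was the lowest ethanol pool in 5 of the 12 (41.7%), beside 33.0% of all genes and 65.7% of the members. Of these 12 markers 1 (8.33%) was lower at the unadjusted threshold. The log2 of their summed linear levels ran from 14.41 to 14.43 after saline and from 14.42 to 14.46 after ethanol. For oligodendrocytes the log2 of the summed linear levels ran from 14.52 to 14.63 after saline and from 14.41 to 14.55 after ethanol. For astrocytes it ran from 14.51 to 14.58 after saline and from 14.5 to 14.54 after ethanol. For microglia it ran from 11.23 to 11.36 after saline and from 11.21 to 11.29 after ethanol. The part of cell makeup in the order of the pools was not tested. At the unadjusted threshold 1 gene of the other potassium channels was higher, the inward rectifier Kcnj12 at the level of receptor genes, and 1 gene of the sodium and calcium channels was lower, the calcium channel Cacna1d. Both were named after their values were seen.

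**Figure D4:**
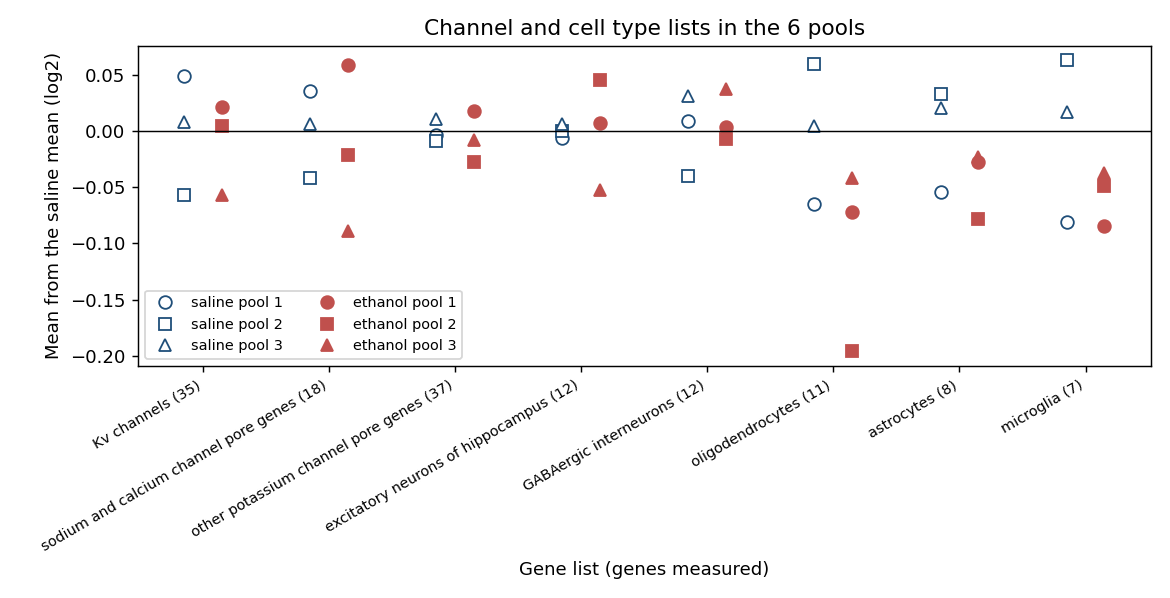
Mean log2 level of each gene list in each of the 6 pools, relative to saline, with open symbols for saline pools and filled ones for ethanol pools. Saline pools 1 and 2 lie at 0.049 and -0.057 for Kv channels and in the opposite order for oligodendrocytes, astrocytes and microglia.

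Kv channels work with auxiliary and partner proteins, and 25 such genes were measured of 25 listed. At an unadjusted p under 0.05, 2 were higher and 1 was lower, 12% of the list beside 5.22% of all genes, and 0 passed after adjustment in limma. The list's median log2 change was -0.002. The abundant beta subunits Kcnab1 and Kcnab2 and the Kv4 partners Kcnip1, Kcnip2, Kcnip3, Kcnip4 and Dpp6 were not among them, with differences from -0.01 to 0.06. Dlg2, a scaffold that clusters Kv1 channels and glutamate receptors, was at 11.34, 11.36 and 11.40 after saline and at 11.28, 11.31 and 11.20 after ethanol. Its groups did not overlap, and the difference was -0.11 ± 0.04 (SE, limma, unadjusted p = 0.0403, adjusted p = 0.931). Kcne2, a small subunit that joins Kv7 and ERG channels and is abundant in the choroid plexus, was at 6.47, 6.44 and 6.67 after saline and at 7.38, 6.49 and 7.06 after ethanol. Its ethanol pools spread widely, and the difference was 0.45 ± 0.19 (unadjusted p = 0.0427). Markers of the choroid plexus, 14 of 16 measured, stood at 0.979, -0.281 and 0.589 relative to saline in ethanol pools 1, 2 and 3. This is the order of Kcne2. The log2 of the markers' summed linear levels ran from 13.20 to 13.47 after saline and from 13.11 to 14.02 after ethanol. The part of choroid plexus tissue in the value of Kcne2 was not tested. Kcne3, a related subunit at the level of receptor genes, was at 4.88, 4.71 and 4.65 after saline and at 4.81, 4.94 and 5.0 after ethanol, a difference of 0.17 ± 0.07 (unadjusted p = 0.038).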

How the data were processed

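Gene expression was measured in hippocampal RNA of 6 pools, 3 per group, and groups were taken from the submitters' treatment labels. The authors summarized Affymetrix Mouse Gene 1.0 ST probes at the gene level with RMA (background correction, quantile normalization, summary per probe set) and deposited log2 values; which software did so is not given in the sources used here. The log2 values were used as deposited, and array medians ran from 5.84 to 5.89. Of 35556 probe sets, 21789 have 1 gene symbol in the platform annotation, 1621 several and 12146 none. All 35 member symbols were the current ones in RefSeq (GRCm38.p6).

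For the 23410 probe sets that carry a symbol, ethanol was compared with saline in limma 3.58.1 (lmFit, eBayes; R 4.3.3), without covariates and with two-sided p-values and Benjamini-Hochberg adjustment over all of them. Counts are over 19938 genes, each read from its brightest probe set. SEs and intervals are limma's. With 3 arrays a group, exact permutation has a lowest possible p of 0.1 and was not used. The procedure was tested on simulated data. The members and lists were chosen with earlier results of these data known.

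Pool values are given for members at an unadjusted p under 0.05 or without overlap, for the 3 largest changes each way, and for members best known in hippocampal neurons. Alternatives were quantile normalization or median centring, adjustment over all probe sets or those above the receptor level, averaging of probe sets per gene, a variance trend, array weights, a block on the replicate number, the methods' ANOVA, and each array left out. Plots were drawn with matplotlib 3.10.9. The study's miRNA, DNA methylation and histone arrays were not analysed here.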

Additional observations from a re-analysis of the deposited data

How the results depend on the processing

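The 6 pools limit what can be seen, and calls at the unadjusted threshold were unstable. No member passed after adjustment under any of the 15 alternatives run with limma or the methods' ANOVA. The count of members lower at an unadjusted p under 0.05, 2 as reported, was 0 with the methods' ANOVA, 0 over all probe sets, 1 (Kcnv1) above the receptor level, 1 (Kcnv1) with the mean of probe sets, 1 (Kcnv1) with an intensity trend and 4 (Kcnh3, Kcnh8, Kcns3 and Kcnv1) with array weights, where 1 member, Kcna7, was higher. With an array left out, 0 to 2 members were lower and 0 to 1 higher. Kcnv1 passed in 8 of 15 alternatives, at -0.20 to -0.10 with an array left out, and not without saline pool 2, saline pool 3, ethanol pool 2 or ethanol pool 3. Kcnh8 passed in 4 of 14 and, with an array left out, only without ethanol pool 3. Dlg2 passed in 9 of 15, Kcne2 in 7 of 15 and Kcne3 in 7 of 14, and Kcne2 was at 0.25 without ethanol pool 1 and 0.69 without ethanol pool 2. Kcns3, not past the threshold as reported, passed in 4 of 15, at -0.07 without ethanol pool 1 and -0.21 without ethanol pool 2.

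Groups did not overlap in 1 member as reported, in 2 with median centring, in 4 with quantile normalization and in 2 to 8 with an array left out, where fewer arrays make an overlap less likely. The median log2 change ran from -0.051 to 0.019 with an array left out, and was above 0 without saline pool 1, saline pool 3 or ethanol pool 3. Of the 15 members whose values were recomputed singly, signs turned with an array left out in 6 with differences near 0, which ran from -0.012 to 0.09 for Kcna2, -0.098 to 0.027 for Kcna4, -0.018 to 0.106 for Kcnd3, -0.034 to 0.013 for Kcnh1, -0.06 to 0.093 for Kcnq3 and -0.054 to 0.004 for Kcnq5. The causes of these shifts were not tested.

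Deviations of same-numbered pools from their group means correlated at -0.049, -0.022 and 0.059. Between differently numbered pools the correlation ran from -0.18 (saline pool 3, ethanol pool 2) to 0.167 (saline pool 1, ethanol pool 2). With 3 pools a group these values cannot show whether pools were matched by litter, and this was not tested. With the replicate number as a block, 1 member was lower (Kcns3, limma, unadjusted p = 0.0219), with an unadjusted p of 0.0617 for Kcnv1 and 0.073 for Kcnh8.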
